A study of Rattus norvegicus with 8 samples.

Results

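The 9 genes described here, Msx1, Msx2, Dlx2, Dlx3, Dlx5, Runx1, Runx2, Lef1 and Bcl6, encode transcription factors known from ameloblasts and from tooth development. They were taken by gene symbol, with case and a trailing _predicted or _mapped ignored (Dlx3 and Bcl6 stand in the file with the ending _predicted), and each was read by 1 probe, so that 9 probes of the 22523 on the array (21557 symbols) were followed. RNA came from the mandibular incisors of 4 male Wistar Hannover rats (strain Wistar in the labels, aged 4 weeks), which carried no named allele and received no treatment. Each rat gave a secretory-stage and a maturation-stage enamel organ, and each of the 8 samples was read on its own RatRef-12 v1 Expression BeadChip array, an Illumina array on which every probe is carried by many beads. The tissue was the multicellular layer lifted off the enamel surface after freeze-drying, so that ameloblasts were measured together with the other cells of that layer. In such bulk samples, fewer cells of a type and less RNA per cell cannot be told apart.

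Ameloblasts first secrete the enamel matrix (secretory stage) and then remove it while mineral is added (maturation stage). Tooth development depends on homeodomain proteins of the Msx and Dlx families, on Runx proteins, which bind DNA with their partner Cbfb, and on Lef1, which turns β-catenin signals of the Wnt pathway into transcription. Bcl6, a repressor that recruits corepressor complexes, is best known from germinal centre B cells. Most Dlx genes lie in neighbouring pairs, and in the rat gene table Dlx1 and Dlx2 (chromosome 3), Dlx3 and Dlx4 (chromosome 10) and Dlx5 and Dlx6 (chromosome 4) had 0 protein-coding genes between them.

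Total signal per array was 11881691 to 12046793 for the secretory stage and 13355073 to 16122665 for the maturation stage. Between 10667 and 10941 probes were detected (detection p below 0.05) on a secretory-stage array and between 11164 and 11450 on a maturation-stage array. Each array correlated more with the arrays of its own stage (mean r of 0.991 to 0.994) than with those of the other stage (0.935 to 0.947), although the source label of maturation replicates 2, 3 and 4 named the secretory stage. The stage markers followed the titles as well. Klk4, the protease of the maturation stage, was higher in the maturation stage by 7.57 (log2) on 1 probe and at least 118-fold on the other, which was detected on 0 secretory-stage arrays, and Enam, which encodes the matrix protein enamelin, was lower by 4.98, with limma adjusted p values of 4.79e-08, 3.68e-09 and 0.000982. Dspp, an odontoblast marker, was detected on all 4 secretory-stage arrays and on 0 maturation-stage arrays, and was at least 34-fold lower in the maturation stage (adjusted p = 3.41e-07). Replicates were separate animals, and how precise the values are is limited by having 4 arrays per stage. All levels below are normalized log2 signals, which may be compared between samples for a probe but not between probes.

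The DNA letters that these factors are known to prefer are shown to place the family beside enamel genes. RefSeq promoters of the rat assembly GRCr8 (250 bases before to 50 after the start) were found for 6 of the 9 genes, in 7 promoters because Runx2 has 2 starts, and for 4 of 5 enamel matrix and protease genes. Both strands were searched, and no searched motif overlapped another where matches were found. The LEF/TCF letters CTTTGA were present in 16.1% of all 33469 promoters, the RUNX letters TGTGGT in 17.3%, the homeodomain letters TAATTG in 8.2% and the BCL6 letters TTCCTNGAA in 1.71%. Among the 7 promoters of the 9 genes, 2 held the LEF/TCF letters (Runx1 and Runx2), 1 held the RUNX letters (Runx2) and 0 held the other motifs. Among the 4 enamel gene promoters, 2 held the LEF/TCF letters (Enam and Ambn), 1 held the homeodomain letters (Ambn) and 0 held the others. Runx2 also held the RUNX letters at bases 28 and 36 after the start, and windows are given only for matches before it. A match describes letters in a window and not a bound site. The 30-base windows below are given 5′ to 3′ on the strand of the gene, with the matched motif, or its reverse complement, in capitals.
Runx1, chr11:45421475-45421504, minus strand: tagtagcacaatCTTTGAaagttggcggct
Runx2, chr9:23664959-23664988, plus strand: CTTTGAgtactgtgaggtcacaaACCACAt
Enam, chr14:19865537-19865566, minus strand: aaaccatttttcTCAAAGctgattggttgt
Ambn (homeodomain), chr14:19898516-19898545, minus strand: aagggtgtgggcTAATTGcaggagcacagt
Ambn (LEF/TCF), chr14:19898475-19898504, minus strand: gcatttgcttcaCTTTGAttggtggattgg

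Of the 9 transcription factors, Bcl6 and Runx1 were up-regulated and Dlx5 was down-regulated in the maturation stage. Dlx2, Dlx3 and Msx2 were detected on all 8 arrays and did not pass the test. Lef1, Runx2 and Msx1 were near the detection limit on most arrays and did not pass it either. A probe was called at a limma adjusted p below 0.05 over all 22523 probes together with a fold change of at least 1.8 (0.85 on the log2 scale). By this rule 3 of 9 probes (33.3%) were called, against 7.75% of all probes (1745), of which 4.6% were higher and 3.15% lower. Bright probes passed more often, and among the probes detected on all 8 arrays, 15.1% (1378 of 9156) were called. In that class the 9 factors had 6 probes, of which 3 were called. The signals of the stages did not overlap for these 3 probes, against 27.7% of all probes (13.1% higher and 14.6% lower). The median log2 fold change of the 9 probes was 0.22, and that of all probes was −0.01.

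**Figure D1:**
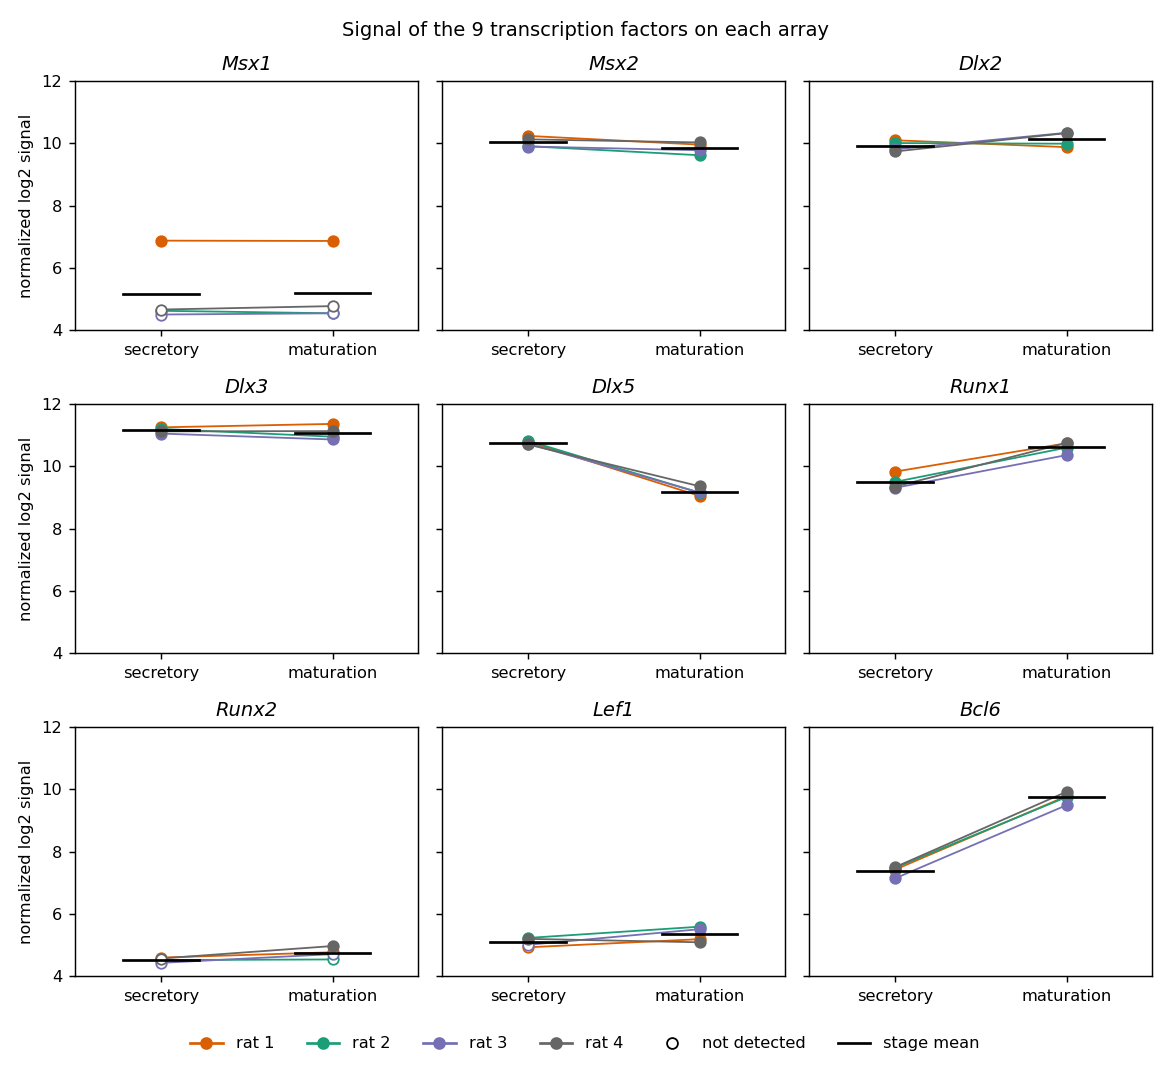
Normalized log2 signal (vertical axis) of each of the 9 transcription factors in the secretory and maturation stage. Points are arrays, lines join the arrays of a rat, open points were not detected and black bars are stage means (n = 4). Bcl6 and Runx1 were higher and Dlx5 lower in the maturation stage in all 4 rats, and Msx1 stood apart on both arrays of rat 1.

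Bcl6 (probe ILMN_1365663, chromosome 11 in the annotation of the array) changed most among the 9 genes. Its normalized log2 signal was 7.42, 7.48, 7.14 and 7.5 in secretory replicates 1 to 4, and 9.78, 9.75, 9.49 and 9.92 in maturation replicates 1 to 4. Every maturation-stage array was above every secretory-stage array, and the stages were far from overlapping. The mean rose from 7.38 ± 0.165 in secretory samples to 9.74 ± 0.178 in maturation samples (SD, n = 4 each). Expression was therefore 5.10-fold higher in the maturation stage, a log2 fold change of 2.35 (SE 0.109, 95% interval 2.11 to 2.6, limma adjusted p = 4.14e-07). The exact two-sided permutation test over the 8 arrays gave p = 0.0286, the smallest value that 4 arrays against 4 allow. Within rats the difference was 2.36, 2.27, 2.35 and 2.42 on the log2 scale, so that the rats were closer to each other than the arrays of a stage were. Bcl6 held place 98 of all probes when these were ordered by their rise.

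Runx1, a Runt-domain factor required for blood stem cells and also known from dental epithelium, was up-regulated by a smaller factor (probe ILMN_1371943, chromosome 11). Its signal was 9.83, 9.50, 9.31 and 9.35 in secretory replicates 1 to 4, and 10.74, 10.60, 10.36 and 10.75 in maturation replicates 1 to 4. The lowest maturation-stage array, replicate 3, was above the highest secretory-stage array, replicate 1. The means were 10.61 ± 0.182 and 9.50 ± 0.237 (SD, n = 4 each), a rise of 2.17-fold with a log2 fold change of 1.11 (SE 0.129, 95% interval 0.82 to 1.41, limma adjusted p = 0.000141). The exact permutation test gave p = 0.0286. All 4 rats showed the rise, which ranged from 0.91 in rat 1 to 1.4 in rat 4, and the lower end of the interval lay below the fold threshold. By size of rise Runx1 held place 669.

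Bcl6 and Runx1 are also expressed in leukocytes, and macrophage and leukocyte markers were higher in the maturation stage in the same samples. Of the 10 probes on that list, 7 were called higher and 0 lower, with a median log2 fold change of 1.15. The summed signal of the 9 detected probes was 3622 to 4304 on the secretory-stage arrays and 9586 to 12371 on the maturation-stage arrays, a ratio of 2.62 between the means. Of the defining markers, Cd68 (a lysosomal protein of macrophages) was higher by 2.19 and Lcp1 (a leukocyte actin-bundling protein) by 1.6 on 1 of its probes, while its other probe was detected on 0 arrays. Ptprc, the pan-leukocyte marker CD45, was higher by 0.92 (log2), with detection on all 4 maturation-stage arrays and on 2 secretory-stage arrays. The call of Ptprc ended without maturation replicate 1 (log2 fold change 0.82), without maturation replicate 3 (0.84) and without both arrays of rat 1 (0.76). The calls of Ptprc and of the leukocyte tetraspanin Cd53 also ended with normexp without negative controls (0.71 and 0.76), an offset of 50 (0.51 and 0.62) or no background correction (0.31 and 0.38). The part of these cells in the Bcl6 and Runx1 signals was not tested. The osteoclast marker Ctsk, a cathepsin, was also called higher (log2 fold change 1.13, limma adjusted p = 7.86e-05), and Calcr was detected on 0 arrays.

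Dlx5, a Dlx factor of the branchial arches, teeth and osteoblasts, was down-regulated in the maturation stage (probe ILMN_1374252, chromosome 4). Its signal was 10.79, 10.82, 10.73 and 10.70 in secretory replicates 1 to 4, and 9.05, 9.15, 9.16 and 9.36 in maturation replicates 1 to 4. The secretory-stage arrays lay close together and all above the maturation-stage arrays. The mean fell from 10.76 ± 0.0549 in secretory samples to 9.18 ± 0.129 in maturation samples (SD, n = 4 each). The log2 fold change was −1.58, or 2.99-fold lower (SE 0.0736, 95% interval −1.75 to −1.42, limma adjusted p = 4.29e-07), and the exact permutation test gave p = 0.0286. The within-rat differences were −1.74, −1.68, −1.57 and −1.34, with rat 4 changing least. Dlx5 held place 234 among all probes by size of fall.

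Dlx6, the genomic neighbour of Dlx5, had signals near the detection limit. It read 5.24, 5.47, 5.43 and 5.11 on the secretory-stage arrays, all detected, and 4.43 to 4.63 on the maturation-stage arrays, none detected. This gave a bound of at least 1.28-fold lower in the maturation stage, with a fitted log2 fold change of −0.77 (limma adjusted p = 0.000139), which is below the fold threshold. Without secretory replicate 4 the fitted value was −0.86 and passed that threshold. The stages did not overlap for Dlx6, which held in this direction for 14.6% of all probes, and Dlx6 was not called.

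Among the 5 probes for enamel organ epithelium, Cdh1 (E-cadherin) was called lower with Dlx5, at −1.17, while Krt14 (0.53) and Trp63 (0.42) were higher by adjusted p without reaching the fold threshold. The call of Cdh1 ended with median scaling (−0.83) and without normalization between arrays (−0.63, adjusted p = 0.119). The summed signal of that list was 25362 to 27921 in the secretory stage and 32424 to 38232 in the maturation stage. The odontoblast and osteoblast markers had 1 probe called higher (Ibsp) and 1 lower (Dspp) out of 9, with Sp7 and Sost detected on 0 arrays, and their summed signals overlapped between the stages (30108 to 48281 against 40504 to 43899). Dspp fell with Dlx5, and the part of odontoblasts in the Dlx5 signal was not tested.

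**Figure D2:**
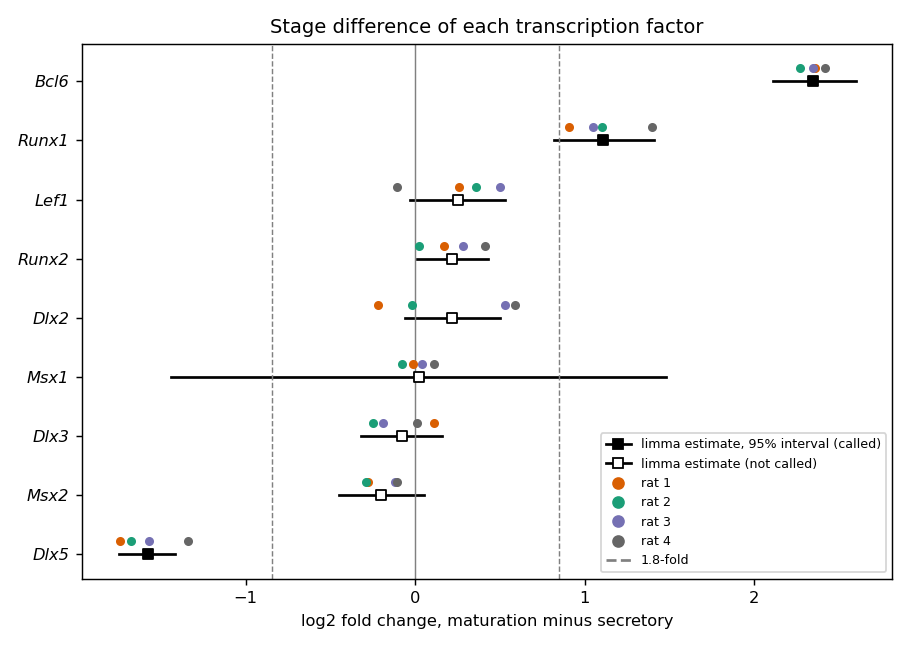
Log2 fold change (maturation minus secretory, horizontal axis) of each transcription factor, ordered from the highest to the lowest. Squares and bars are limma estimates with 95% intervals (filled where called, n = 4 per stage), coloured points are the differences within each rat and dashed lines mark 1.8-fold. The interval of Msx1 ran from −1.44 to 1.48, although its differences within rats lay between −0.08 and 0.11.

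Dlx2, which acts with Dlx1 in molar development, read 10.10, 10.01, 9.81 and 9.74 in secretory replicates 1 to 4, and 9.88, 9.99, 10.34 and 10.33 in maturation replicates 1 to 4. The stages overlapped, since rats 1 and 2 had slightly less signal in the maturation stage and rats 3 and 4 had more. The difference of 0.22 (SE 0.126, 95% interval −0.06 to 0.50) did not pass the test (limma adjusted p = 0.273, exact permutation p = 0.2). Dlx1, its neighbour on chromosome 3, had a log2 fold change of 0.05 (adjusted p = 0.838). With each array scaled to a common median, the difference of Dlx2 was 0.53 (adjusted p = 0.00688), and it was 0.73 (adjusted p = 0.000537) without normalization between arrays. Both values stayed below the fold threshold.

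Dlx3, the gene mutated in tricho-dento-osseous syndrome, in which enamel is thin, read 11.25, 11.20, 11.05 and 11.12 in secretory replicates 1 to 4, and 11.36, 10.95, 10.86 and 11.13 in maturation replicates 1 to 4. The highest and the lowest of the 8 arrays were both maturation-stage arrays. The log2 fold change was −0.08 (SE 0.106, 95% interval −0.32 to 0.16, limma adjusted p = 0.696, exact permutation p = 0.543), so that a change of 1.8-fold in either direction lay outside the interval. The sign of this value turned with median scaling (0.18) and without normalization between arrays (0.38).

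Msx2, a homeodomain repressor without which enamel forms poorly in mice, read 10.24, 9.91, 9.90 and 10.13 in secretory replicates 1 to 4, and 9.96, 9.62, 9.78 and 10.03 in maturation replicates 1 to 4. All 4 rats had less signal in the maturation stage, by 0.28, 0.29, 0.12 and 0.11 on the log2 scale, yet the stages overlapped. The log2 fold change of −0.20 (SE 0.112, 95% interval −0.45 to 0.05) did not pass the unpaired test (limma adjusted p = 0.262, exact permutation p = 0.2). With the rat as a block it did not pass either (SE 0.0663, limma adjusted p = 0.0721). Its sign turned with median scaling (0.11) and without normalization between arrays (0.31).

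Msx1, which is needed for teeth to pass the bud stage, was detected on 1 array of each stage, and both came from rat 1. Its normalized signal was 6.88 in secretory replicate 1 and 4.63, 4.51 and 4.67 in the other 3 replicates. In the maturation stage it was 6.87 in replicate 1 and 4.55, 4.55 and 4.78 in the others. The deposited intensities showed the same, with 180.4 against 102.1 to 108.0 in the secretory stage and 252.6 against 107.2 to 122.0 in the maturation stage. The probe (ILMN_1372537, chromosome 14) was read by 31 to 53 beads per array, with a standard error of 2.7 to 4.64% of the signal. The stage difference was 0.02 (SE 0.648, 95% interval −1.44 to 1.48, limma adjusted p = 0.992, exact permutation p = 0.886), and it reached −0.53 without maturation replicate 1 and 0.59 without secretory replicate 1. Within rats the stages differed by −0.01, −0.08, 0.04 and 0.11, so that the spread of this gene lay between rats and not between stages. Without both arrays of rat 1, Msx1 was detected on 0 of the remaining 6 arrays.

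After it was seen, the separation of rat 1 was set beside that of the other probes detected on both of its arrays. This is a description and no test, because Msx1 passed that filter only through rat 1. Of 10038 probes detected on both arrays of rat 1, 279 were higher there than on each of the other 6 arrays, 2 of them by more than 0.5 and 1, Msx1, by more than 1 on the log2 scale. The gap was 2.09 for Msx1, measured from 6 arrays that did not detect it, and its size with another background correction was not computed. The next was 0.57 for Usmg5, which encodes a small mitochondrial membrane protein of the ATP synthase. In rats 2, 3 and 4 the numbers of probes set apart in this way were 175, 193 and 188, and their widest gaps were 0.77, 0.66 and 1.02. In the other direction, 1 of the 9333 probes detected on all of the other 6 arrays was lower than each of these by more than 1 on both arrays of rat 1, and the same number was found for rats 2 and 4. Fibroblast and dental mesenchyme markers gave summed signals that were lowest of their stage in secretory replicate 1 (41735, others 44932 to 47041) and highest in maturation replicate 1 (52989, others 50738 to 52679). The summed odontoblast and osteoblast markers were lowest in secretory replicate 1 (30108, others 40344 to 48281), and within the range of the others in maturation replicate 1 (43689). The part of these cells in the Msx1 signal of rat 1 was not tested.

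**Figure D3:**
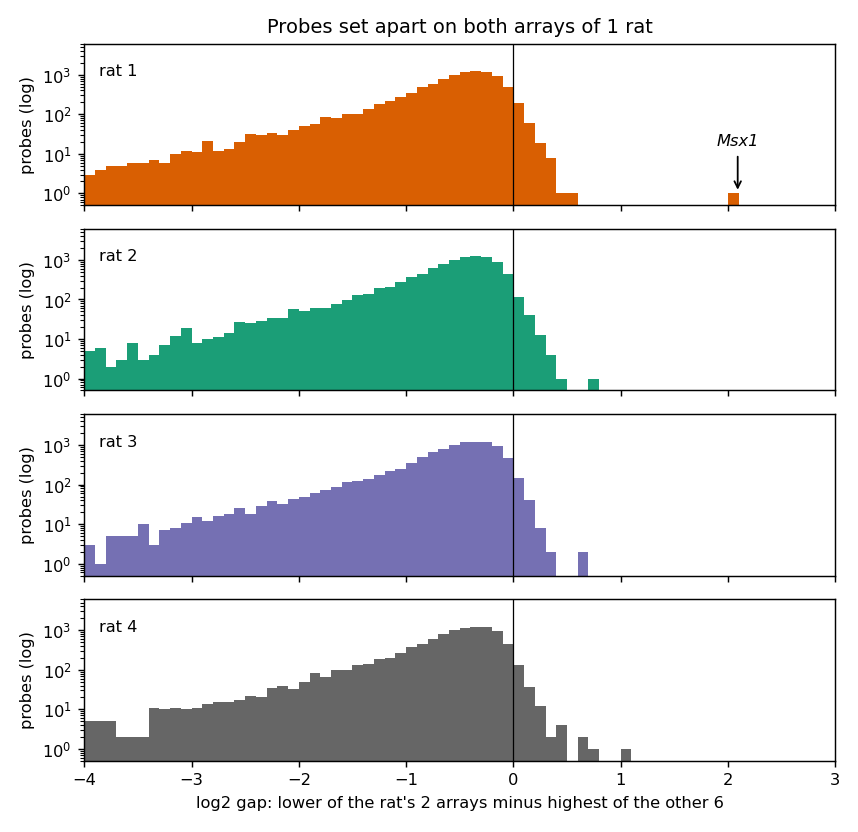
Number of probes (log axis) by the log2 gap between the lower of the 2 arrays of a rat and the highest of the other 6 arrays, for probes detected on both arrays of that rat (gaps below −4 not drawn). Values above 0 (black line) are probes higher on both arrays of the rat than on every other array. The widest gap of normalized signal in the 4 panels was 2.09 for Msx1 in rat 1, measured from arrays that did not detect it.

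Runx2, the factor required for osteoblast differentiation, was detected on 1 of 8 arrays (probe ILMN_1365491, chromosome 9). It read 4.6, 4.52, 4.43 and 4.57 in secretory replicates 1 to 4, and 4.77, 4.54, 4.71 and 4.97 in maturation replicates 1 to 4, of which replicate 4 was detected. The stages overlapped and most values lay at background. The fitted difference was 0.22 (SE 0.0918, 95% interval 0.01 to 0.43, limma adjusted p = 0.122, exact permutation p = 0.0857), and no fold is given because 0 secretory-stage arrays detected the probe. The adjusted p was 0.0348 without maturation replicate 2 and 0.0442 without normalization between arrays, with fitted differences of 0.28 and 0.32 that were below the fold threshold. Without maturation replicate 4, the array that detected the probe, the difference was 0.14 (adjusted p = 0.274). The difference was 0.11 without background correction, 0.09 with an offset of 50 and 0.12 with median scaling. A dim probe does not show that its gene was silent, here or for Msx1. For Lcp1, 1 probe was detected on 0 arrays while the other was called higher.

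Lef1 was detected on all 4 maturation-stage arrays and on secretory replicates 2 and 4 (probe ILMN_1369385, chromosome 2). It read 4.93, 5.23, 5.01 and 5.20 in secretory replicates 1 to 4, and 5.19, 5.59, 5.51 and 5.09 in maturation replicates 1 to 4. The stages overlapped, and 3 of 4 rats had more signal in the maturation stage. The difference was 0.25 (SE 0.124, 95% interval −0.03 to 0.53, limma adjusted p = 0.194, exact permutation p = 0.171). It was 0.08 without background correction and 0.13 with an offset of 50, but 0.52 (adjusted p = 0.00749) without normalization between arrays, which is still below the fold threshold. The size of a difference at signals this low thus moved with the processing.

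**Figure D4:**
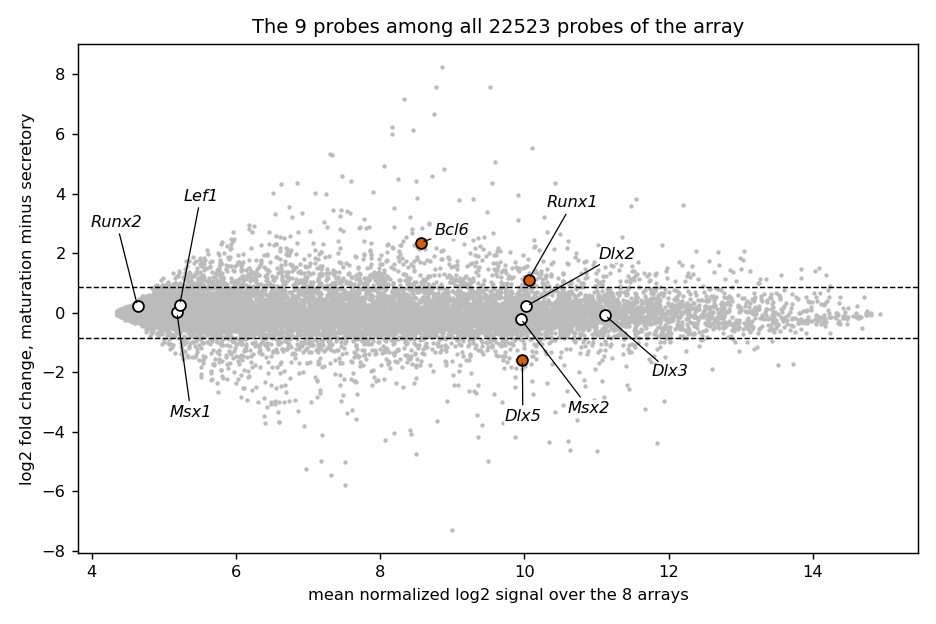
Log2 fold change (maturation minus secretory, vertical axis) against mean normalized log2 signal over the 8 arrays (horizontal axis) for all 22523 probes (grey) with the 9 transcription factors marked (filled where called). Dashed lines mark 1.8-fold. Bcl6, Runx1 and Dlx5 lie outside these lines, and Msx1, Runx2 and Lef1 lie at the dim end.

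The relatives, partners and known targets of these factors were read from lists chosen with earlier results in view. Together they held 109 probes for 105 of 116 listed genes, of which 9 were called higher and 12 lower (against 7.75% of all probes called, and 15.1% of those detected on all 8 arrays), with a median log2 fold change of 0.00. In all, 24 of these probes were detected on 0 arrays. List medians ran from −0.10 to 0.10, except for the enamel matrix and protease genes (−0.45) and the bone matrix genes (0.30).

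Of the 5 probes on the list of Runx partners and the relative Runx3, 0 were called in either direction and the median log2 fold change was −0.10. Cbfb is the partner with which every Runx protein binds DNA. Its signal was 11.67 to 11.87 in the secretory stage and 11.64 to 11.67 in the maturation stage (log2 fold change −0.10, limma adjusted p = 0.265). Runx3 had 0.28 (adjusted p = 0.216). Among the 4 probes for the Msx and Dlx relatives, 0 were called, and both Msx3 probes were detected on 0 arrays.

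Among the 8 probes for Lef/Tcf relatives and β-catenin, 1 was called, and it was lower. Tcf7, which encodes the Lef1 relative TCF1, read 9.14, 9.55, 9.54 and 9.39 in secretory replicates 1 to 4, and 7.07, 7.07, 7.26 and 6.77 in maturation replicates 1 to 4. The stages were well separated, and expression was 5.13-fold lower in the maturation stage (log2 fold change −2.36, SE 0.122, limma adjusted p = 8.04e-07). Tcf7l2 was lower by adjusted p alone (−0.79, adjusted p = 0.00305), and it passed the fold threshold without secretory replicate 4 (−0.94) or without maturation replicate 1 (−0.86). Ctnnb1, which encodes β-catenin itself, did not pass (−0.17, adjusted p = 0.255). TCF1 is abundant in T cells as well, and their part in the Tcf7 signal was not tested.

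Of 9 probes for β-catenin target genes, 2 were called and both were lower in the maturation stage, with a list median of −0.05. Axin2, a feedback inhibitor of the pathway, read 5.64 to 6.26 on the secretory-stage arrays, all detected, and 4.47 to 4.63 on the maturation-stage arrays, none detected. It was at least 1.99-fold lower (limma adjusted p = 5.43e-05), and without background correction or with an offset of 50 the fitted fold missed the threshold. Dkk1, a secreted Wnt antagonist, read 4.75, 6.21, 7.03 and 7.76 in secretory replicates 1 to 4, of which replicate 1 was not detected, and 4.43 to 4.91 in the maturation stage, where it was not detected. Its stages overlapped, and the bound of at least 2.8-fold lower (adjusted p = 0.0284) rested on single arrays. The adjusted p was 0.0777 without secretory replicate 3, 0.0558 without secretory replicate 4, and 0.0585, 0.0702 and 0.0695 without maturation replicates 1, 2 and 4. The call also ended with the plain test of the methods (adjusted p = 0.108 after Benjamini-Hochberg), with an offset of 50 (log2 fold change −1.13, adjusted p = 0.0656) and without background correction (−0.80).

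Bcl6 acts through corepressors, none of which was called higher. Of 11 probes for Bcl6 relatives and corepressors, 1 was called and it was lower. Hdac5, a class IIa histone deacetylase, read 8.47 to 8.89 in the secretory stage and 7.28 to 7.46 in the maturation stage (log2 fold change −1.35, limma adjusted p = 1.29e-05), and its fold missed the threshold without normalization between arrays (−0.80). The corepressor Bcor had −0.14 (adjusted p = 0.397). Of 6 probes for genes that Bcl6 is known to repress in lymphocytes, 1 was called, and it was higher. That gene, Cdkn1a, which encodes the cell cycle inhibitor p21, read 5.23 to 6.17 in the secretory stage and 6.32 to 7.06 in the maturation stage (log2 fold change 0.89, adjusted p = 0.011). Its call ended without secretory replicate 2 (0.73) and without maturation replicate 4 (0.74), and with the plain test of the methods (adjusted p = 0.0563 after Benjamini-Hochberg). The fold also missed the threshold with normexp without negative controls (0.72), an offset of 50 (0.6) or no background correction (0.39). The 4 cell cycle marker probes were lower in the same samples by adjusted p alone (median log2 fold change −0.59), with summed signals of 1197 to 1848 in the secretory stage and 906 to 1093 in the maturation stage. Without normalization between arrays, Ccna2 (−0.23), Bub1 (−0.13) and Mki67 (−0.05) did not pass and the sign of Cdk1 turned (0.02). The part of cycling cells in the Cdkn1a difference was not tested. Socs2, a suppressor of cytokine signalling on the same list, was lower by adjusted p alone (−0.45, adjusted p = 0.00221), and its sign turned without normalization between arrays (0.08). The targets Prdm1 and Ccnd2 were detected on 0 arrays.

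Groucho proteins are corepressors that Runx, Lef/Tcf and Msx factors can recruit. Of their 6 probes, 0 met the fold threshold, but 4 passed the adjusted p alone, against 26.9% of all probes, and they did so in both directions. Tle2 (0.41) and Tle5 (0.55), a short family member known to act against the others, were higher, while Tle3 (−0.70) and Tle4 (−0.82) were lower in the maturation stage. For each of these 4 genes the stages did not overlap, which held for 27.7% of all probes, and Tle1 and Tle6 were detected on 0 arrays. Tle4 passed the fold threshold without secretory replicate 4 (−0.87) or without maturation replicate 3 (−0.90), and Tle2 (0.90) and Tle5 (0.93) passed it without normalization between arrays.

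BMP signals induce Msx and Dlx genes in the tooth. Of the 9 probes for BMP ligands and Id genes, 1 was called. Bmp2 read 8.71, 8.05, 8.15 and 8.18 in secretory replicates 1 to 4, and 6.22, 5.77, 6.02 and 5.91 in maturation replicates 1 to 4. The stages were clearly apart, with expression 4.89-fold lower in the maturation stage (log2 fold change −2.29, SE 0.15, limma adjusted p = 3.48e-06). Id1 and Id3, which are direct BMP targets in many cells, were higher by adjusted p alone (0.41 and 0.49), and passed the fold threshold without normalization between arrays (0.92 and 1.04). The ligands Bmp3 (−0.37, adjusted p = 0.0109) and Bmp6 (−0.49, adjusted p = 0.0197) were lower by adjusted p alone, and the sign of Bmp3 turned without normalization between arrays (0.19).

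**Figure D5:**
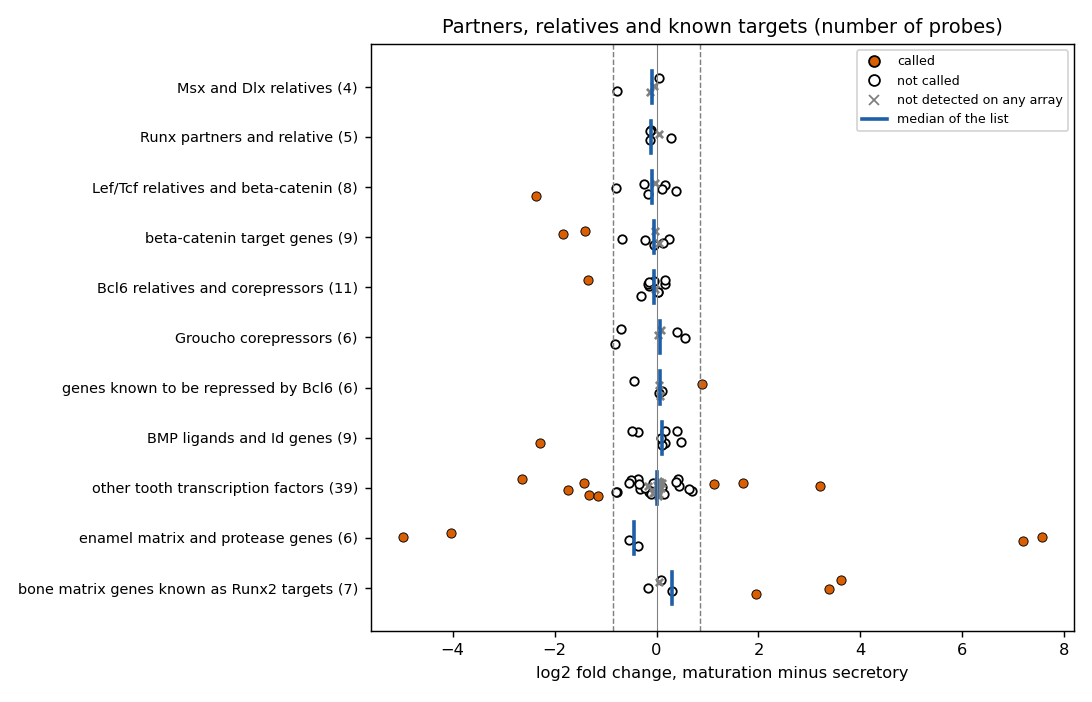
Log2 fold change (maturation minus secretory, horizontal axis) of every probe on each list of relatives, partners and targets, with the number of probes in brackets. Filled points were called, open points were not, crosses were detected on 0 arrays, blue bars are list medians and dashed lines mark 1.8-fold. Most lists were centred near 0, with Tcf7 and Bmp2 far to the left of theirs.

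Other transcription factors of tooth epithelium and mesenchyme were counted as the wider family. Of 39 probes for 37 genes, 3 were called higher and 5 lower, 13 were detected on 0 arrays, and the median was 0.00. Klf5, a Krüppel-like factor of epithelia, rose most, from 6.30 to 7.17 in the secretory stage to 9.32 to 10.66 in the maturation stage (log2 fold change 3.21, limma adjusted p = 1.76e-05). Its relative Klf4 was lower (−1.33, adjusted p = 2.53e-06). Isl1, a LIM-homeodomain factor of incisor epithelium, rose by 1.69 (adjusted p = 2.52e-06), and Foxo1, a forkhead factor, rose by 1.12 (adjusted p = 1.09e-05).

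The called factors that were lower included regulators of early tooth development. Satb1, a chromatin organizer, fell from between 11.78 and 11.98 to between 9.0 and 9.71 (log2 fold change −2.63, adjusted p = 1.1e-06 by limma) on 1 probe. Its other probe was detected on 1 of 8 arrays and gave no usable fold. Lhx6, a LIM-homeodomain factor of dental mesenchyme, had −1.74 (adjusted p = 0.000108), and Pitx1, a homeodomain factor of the oral epithelium and mandibular mesenchyme, had −1.43 (adjusted p = 0.000337). Bcl11b, a zinc finger factor also called Ctip2 that is required for ameloblast development, had −1.14 (adjusted p = 2.3e-05), and its fold missed the threshold with median scaling (−0.81) and without normalization between arrays (−0.61).

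The genes that these factors are known to act on in enamel and bone included the largest differences on these lists. Of 6 probes for enamel matrix and protease genes, 2 were called higher (both Klk4) and 2 lower. Enam read 11.94 to 12.03 in the secretory stage and 9.08, 5.17, 5.53 and 8.22 in maturation replicates 1 to 4, so that replicates 1 and 4 kept more signal. Mmp20, the matrix protease of the secretory stage, had a log2 fold change of −4.03 (limma adjusted p = 2.55e-06). Amelx, which encodes amelogenin, did not pass (−0.53, adjusted p = 0.0555), although its stages did not overlap, and Ambn, which encodes ameloblastin, had −0.36 (adjusted p = 0.0353), below the fold threshold.

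Bone matrix genes known as Runx2 targets had 3 of 7 probes called, all higher, in samples in which the only Runx2 probe was near background. Spp1, which encodes osteopontin, rose by 3.62 (limma adjusted p = 3.18e-06), Mmp13, a collagenase, by 3.38 (adjusted p = 3.57e-08) and Ibsp, which encodes bone sialoprotein, by 1.95 (adjusted p = 1.27e-05). Spp1 is also expressed by macrophages, whose markers were higher in the same samples, and their part in its rise was not tested. The osteoblast factor Sp7 was detected on 0 arrays, and Bglap, which encodes osteocalcin, had −0.16 (adjusted p = 0.89).

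The probes whose signals followed the called factors most closely over the 8 arrays are given as a description, since any probe that differs between the stages correlates with them. Over 9152 probes, Dlx5 was matched most closely by Pxylp1 (Acpl2 in the file) and by Plod2, a collagen lysyl hydroxylase, both with r = 0.997. Bcl6 was matched by Tmem140 (MGC109491 in the file, r = 0.999) and by Nectin3 (Pvrl3 in the file, r = 0.998), a cell adhesion protein. Runx1 was matched by Hspb8, a small heat shock protein (r = 0.993), and by Cebpb, a bZIP factor (r = 0.992). Probes with r above 0.98 numbered 280 for Dlx5, 232 for Bcl6 and 19 for Runx1. Among these 3 genes, the rats differed most for Runx1.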

How the data were processed

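Enamel organ RNA from 4 rats, taken at the secretory and at the maturation stage, was read on 8 RatRef-12 v1 arrays. In 1 table, the authors deposited raw mean bead intensities (no background subtraction, no scaling between arrays), each accompanied by its detection p-value, bead number and bead standard error. The bead summary software and the annotation build are not given in the sources used here. Stage and replicate came from the titles, and replicate numbers are those of the rats.

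Processing used limma 3.58.1 in R 4.3.3. Background was corrected with neqc, which estimated the negative controls through the detection p-values, and values were offset by 16, quantile-normalized and log2-transformed. All 22523 probes were tested unpaired with lmFit and eBayes, unfiltered, with Benjamini-Hochberg adjustment. Calls needed an adjusted p below 0.05 and a fold of at least 1.8, the thresholds of the methods. Where no array of a stage had a detection p below 0.05, the probe counted as undetected in that stage, and its fold is a lower bound computed from the dimmest detected probe of each array. A larger offset, or no background correction, gave smaller folds for dim probes. Exact permutation tests (two-sided) used scipy 1.17.1. Summed marker signals are sums of normalized signals on the linear scale over probes detected on at least 1 array. The fitting script was tested on simulated arrays.

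The members and the gene lists were chosen with earlier results of these data known. Named were the 9 members, every gene called on the pathway lists, defining markers, and the 2 probes most like each called member. Genes that passed the adjusted p alone, genes that did not pass, and Usmg5 were named after their values were seen. The deviations of the 2 samples of a rat from their stage means correlated at 0.195, 0.129, 0.219 and 0.234 over 11233 probes, so the rat, which gave both samples, was an alternative block. Other alternatives were 2 background corrections, an offset of 50, cyclic loess, median scaling, no normalization between arrays, a detection filter, the Student test of the methods, other thresholds and each array left out in turn. Leaving out both arrays of rat 1 and the comparison of gaps between rats were added after the data were seen. Current symbols came from the RefSeq gene table of GRCr8, which matched 17430 probes by gene ID, and promoters came from RefSeq on GRCr8. The miRNA data of the study were not used here.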

Additional observations from a re-analysis of the deposited data

Results flagged for a closer look

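Sets of 4 arrays in which the highest or lowest value stood apart by Dixon's criterion (the gap to the nearest value set against the whole range, at the 95% level) were counted over 78 sets, those of the members, the called pathway probes and the summed markers. In all, 4 sets passed, and chance alone gives about 3.9, that is 5% of sets.

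Msx1 gave 2 of these sets. In the secretory stage replicate 1 had a normalized log2 signal of 6.88 against 4.51 to 4.67 in the others, and in the maturation stage replicate 1 had 6.87 against 4.55 to 4.78. Both samples came from rat 1. For Ibsp, secretory replicate 1 read 6.38 and the others 6.92 to 6.97, so that it stood below them. The summed signal of the enamel organ epithelium markers reached 32424 in maturation replicate 1, below the 37934 to 38232 of the others. The causes were not tested.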

How the results depend on the processing

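Bcl6, Runx1 and Dlx5 kept their direction and their call under each of 18 alternatives, with log2 fold changes of 1.86 to 2.88, 1.03 to 1.63 and −1.65 to −1.07 and highest adjusted p values of 0.000102, 0.00323 and 6.09e-05. With the rat as a replicate block, 1750 of all probes were called, the log2 fold changes of Bcl6 (2.35), Runx1 (1.11) and Dlx5 (−1.58) had adjusted p values of 2.98e-06, 0.000195 and 3e-05, and no call of the 9 genes changed. With each array left out in turn, 2 members stayed called higher and 1 lower throughout, and the calls ranged from 1705 to 1806 for all probes, 19 to 23 for the pathway lists and 18 to 21 for the marker lists. Over the same settings Msx1 ranged from −0.53 to 0.59, with −0.17, −0.21 and −0.15 without secretory replicates 2, 3 and 4. Without background correction 923 of all probes were called. Without the fold threshold 6051 of all probes, 47 of the pathway list probes (against 21) and 33 of the marker list probes (against 19) were called. The share of calls that were higher was 59.3%, 77.6% with median scaling and 87.2% without normalization between arrays, which moved the median of all probes from −0.01 to 0.13. Sign changes were looked for among the members and among the list genes with an adjusted p below 0.05, and not among the other list genes. Signs turned with median scaling for Msx2 (0.11), Dlx3 (0.18) and Ncor1 (0.05). They turned without normalization between arrays for Msx2 (0.31), Dlx3 (0.38), Ncor1 (0.25), Socs2 (0.08), Bmp3 (0.19), Pax9 (0.03), Zeb1 (0.19), Postn (0.05) and Cdk1 (0.02), none of which was called. Cdh1 lost its call with median scaling (−0.83) and without normalization between arrays (−0.63). The detection filter left out Msx1 and Runx2, which then have no value. The causes were not tested.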
